A study of Mus musculus with 6 samples.

Results

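The 9 genes Clca4a, Clca4b, Ceacam20, Ceacam1, Slc26a3, Guca2a, Guca2b, Aqp8 and Cdhr5 are known from differentiated cells of the colonic surface, and were read here in the epithelial cells of 2 mouse models of colon tumour. They were found by gene symbol among 31053 features, each symbol matched 1 feature, and they were chosen with their levels in these epithelial cells already known. Their levels and fold changes between the models in epithelial cells are therefore given as a description, without a test. Single-cell RNA was measured in 6 whole colon tumours from male mice, 3 of each model, and 4233 of 47002 cells kept were epithelial-like, 1941 from one model and 2292 from the other.

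In the model labelled Apc ICI the genotype was VilCreER Apcfl/fl, with both copies of Apc floxed, and the group is labelled Intracolonic Induction. Tumours were started by 1 injection of 4-OH tamoxifen, 70 µl at 100 µM, under the lining of the colon, and these mice received no AOM according to the labels. In the model labelled AOM PN the genotype was VilcreER P53fl/fl Notch1Tg, with floxed p53 and a Notch1 transgene, and the group is labelled Ageing Tumor. These mice received 2 mg of tamoxifen into the abdominal cavity and, from 4 days later, 10 mg/kg of the colon carcinogen azoxymethane (AOM) weekly for 6 weeks. The Cre recombinase of both models is driven by the villin promoter, which is active in intestinal epithelium, and needs tamoxifen. All animals were taken at the clinical endpoint, with no age given. Genotype, carcinogen and route of induction differ together between the groups and cannot be told apart. The labels do not say that the 3 samples of a group came from separate animals, and p-values here reflect only the spread between samples, which may be technical.

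Epithelium of the colon renews from crypts, and cells that leave the crypt become absorptive colonocytes or secretory cells such as goblet cells. Colonocytes of the surface carry a brush border of microvilli, exchange chloride for bicarbonate, take up sodium and water, and are shed. Clca4a and Clca4b belong to the CLCA family, secreted or membrane-bound metalloproteases first described as regulators of chloride conductance. Ceacam1 is an adhesion receptor of epithelium and leukocytes with an inhibitory cytoplasmic tail, and Ceacam20 is a relative of the intestinal brush border. Cdhr5 is the protocadherin that links neighbouring microvilli together with Cdhr2. Slc26a3 is the apical exchanger of chloride for bicarbonate, and Aqp8 is a water channel of surface colonocytes. Guca2a and Guca2b encode guanylin and uroguanylin, peptide hormones that activate the receptor guanylate cyclase C of the same epithelium.

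The genes lie on 4 chromosomes of the GRCm38 (mm10) assembly, and the CLCA and guanylin genes are neighbours. All 9 are protein-coding genes of the GENCODE annotation. Clca4a (ENSMUSG00000068547, chr3:144952480-144975045) and Clca4b (ENSMUSG00000074195, chr3:144910921-144932529) are both on the minus strand, 19.9 kb apart. Guca2a (ENSMUSG00000023247, chr4:119637704-119639471, plus strand) and Guca2b (ENSMUSG00000032978, chr4:119656607-119658954, minus strand) face each other across 17.1 kb. Ceacam20 (ENSMUSG00000070777, chr7:19965412-19991104, plus strand), Ceacam1 (ENSMUSG00000074272, chr7:25461707-25477603, minus strand), Aqp8 (ENSMUSG00000030762, chr7:123462291-123468004, plus strand) and Cdhr5 (ENSMUSG00000025497, chr7:141269083-141276786, minus strand) are spread over chromosome 7. Slc26a3 (ENSMUSG00000001225, chr12:31390871-31473917, plus strand) is on chromosome 12.

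Promoters of 8 of the 9 genes were matched in RefSeq (GRCm38.p6), each 300 bases long, from 250 bases before to 50 after the annotated start. The 5 that hold a match to a searched motif are printed 5′ to 3′ on the gene's strand, with that of Guca2a, which holds none, beside its neighbour Guca2b. Capitals mark matches, on either strand, to motifs of factors of this epithelium: TTTATNG for the homeobox factors CDX, GGGNGGG for KLF and TGGGAA for RBPJ, the DNA-binding partner of Notch. The windows are chr3:144932480-144932779 for Clca4b, chr7:19965162-19965461 for Ceacam20, chr7:123462044-123462343 for Aqp8, chr7:25477576-25477875 for Ceacam1, chr4:119637482-119637781 for Guca2a and chr4:119658896-119659195 for Guca2b.
Clca4b: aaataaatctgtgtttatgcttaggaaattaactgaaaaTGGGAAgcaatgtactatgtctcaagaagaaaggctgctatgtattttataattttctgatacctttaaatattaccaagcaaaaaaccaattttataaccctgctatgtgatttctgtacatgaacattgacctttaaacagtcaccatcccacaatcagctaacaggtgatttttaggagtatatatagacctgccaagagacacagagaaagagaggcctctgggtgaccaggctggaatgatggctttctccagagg
Ceacam20: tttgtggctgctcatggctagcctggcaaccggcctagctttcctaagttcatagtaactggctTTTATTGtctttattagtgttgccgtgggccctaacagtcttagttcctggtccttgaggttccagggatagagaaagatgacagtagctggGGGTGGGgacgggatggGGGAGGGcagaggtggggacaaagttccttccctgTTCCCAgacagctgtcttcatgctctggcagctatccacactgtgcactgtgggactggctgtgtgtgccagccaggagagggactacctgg
Aqp8: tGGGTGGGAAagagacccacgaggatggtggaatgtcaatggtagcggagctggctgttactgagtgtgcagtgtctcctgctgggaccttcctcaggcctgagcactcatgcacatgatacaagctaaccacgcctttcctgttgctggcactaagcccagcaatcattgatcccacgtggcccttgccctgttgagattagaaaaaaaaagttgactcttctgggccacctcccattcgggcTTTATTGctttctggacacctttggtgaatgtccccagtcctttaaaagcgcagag
Ceacam1: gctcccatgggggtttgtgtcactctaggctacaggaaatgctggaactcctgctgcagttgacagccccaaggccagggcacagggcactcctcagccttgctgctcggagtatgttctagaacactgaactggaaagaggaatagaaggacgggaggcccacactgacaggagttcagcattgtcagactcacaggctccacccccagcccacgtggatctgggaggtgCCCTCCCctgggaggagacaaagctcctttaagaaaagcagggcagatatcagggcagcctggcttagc
Guca2a: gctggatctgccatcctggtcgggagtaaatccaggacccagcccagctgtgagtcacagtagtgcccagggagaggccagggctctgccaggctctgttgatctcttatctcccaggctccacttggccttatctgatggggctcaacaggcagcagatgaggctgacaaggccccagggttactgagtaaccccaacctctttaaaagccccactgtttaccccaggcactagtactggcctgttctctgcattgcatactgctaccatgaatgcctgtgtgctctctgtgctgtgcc
Guca2b: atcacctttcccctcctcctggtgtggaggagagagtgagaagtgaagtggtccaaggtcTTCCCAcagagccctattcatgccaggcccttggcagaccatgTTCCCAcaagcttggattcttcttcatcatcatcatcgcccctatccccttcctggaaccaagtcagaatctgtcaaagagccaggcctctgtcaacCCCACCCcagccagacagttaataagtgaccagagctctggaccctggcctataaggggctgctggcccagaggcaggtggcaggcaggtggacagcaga
The CDX motif was found in 2 of the 8 promoters, at position -186 from the start in Ceacam20 and -6 in Aqp8, against 10.9% of all 32851 RefSeq promoters. KLF and RBPJ motifs were each found in 4 of the 8, against 48.1% and 25.6% of all promoters, and in Aqp8 a KLF and an RBPJ match overlap. No match to CAAAGTNCA (HNF4) or CTTTGAT (TCF/LEF) was found in these windows, which 1.41% and 3.73% of all promoters hold. Guca2a, Slc26a3 and Cdhr5 held no match to any of the 5 motifs. A match of letters is a description and not a binding site.

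Near-identical copies limit what a 3′ count can show for 1 of the genes. In GENCODE, the last 500 bases of the longest coding transcripts of Ceacam1 and its neighbour Ceacam2 were 99.2% identical, and 94.7% of the 50-base windows of Ceacam1 there occur unchanged in Ceacam2. How reads shared by both were counted is not given in the sources used here, so the split between Ceacam1 and Ceacam2 is uncertain. Clca4a and Clca4b were 95.3% identical over the whole transcript and 88.8% over the last 500 bases, where none of 451 windows of Clca4a occurred in Clca4b. The guanylin transcripts shared no such window.

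The libraries of Apc ICI held 59309093 to 60075436 unique molecular identifiers (UMIs), those of AOM PN 87107277 to 98583066. Haemoglobin took 21.4% to 61.4% of them over the Apc ICI libraries, and 25.5%, 29.0% and 1.87% in AOM PN 1, 2 and 3, so AOM PN 3 stood apart. Any pair of libraries shared 10 to 52 barcodes. The epithelial-like class was named from 12 markers such as Epcam, Krt8 and Cdh1, which 14 kept sub-clusters carried at 8 or more of 12. Median depth per epithelial-like cell was 10106, 12392 and 5688 UMIs over libraries 1, 2 and 3 of Apc ICI, against 1484, 1685 and 1407 over those of AOM PN. The groups do not overlap in depth, and the part of depth in the differences below was not tested beyond the thinned values given beside them. Counts summed over these cells and given as CPM, the usual scaling of counts to library size, are called levels here. They mix the number of cells of a type with the RNA per cell, which cannot be told apart in such sums.

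Clca4b, Clca4a, Ceacam20, Ceacam1 and Cdhr5 were at higher levels in every AOM PN library than in any Apc ICI library, while the guanylins overlapped between models and Slc26a3 and Aqp8 were almost unseen. Of the 9 genes, 7 passed the filter on low counts, and Clca4a, Clca4b and Ceacam20 passed it only through AOM PN. Of these 7, 5 did not overlap between groups and were higher in AOM PN, as were 24.6% of the 12729 genes tested. This contrast chose the genes, so nothing is read from that count. The median log2 fold over the 7 was 3.55, against -0.0047 over all genes tested.

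Clca4b, the CLCA gene with the higher level, stood at 0.302, 0.223 and 0.791 CPM in Apc ICI libraries 1, 2 and 3, and at 112, 158 and 144 CPM in AOM PN libraries 1, 2 and 3. The Apc ICI levels rest on 13 UMIs in all, against 1776 in AOM PN. The log2 fold was 8.46 ± 0.34 (SE, n = 3 and 3), and 7.85 when each cell was thinned to 1500 UMIs.

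Clca4a stood at 0, 0.112 and 0.132 CPM in the Apc ICI libraries and, in the AOM PN libraries, at 13.1, 103 and 23.4 CPM. AOM PN 2 was far above the other AOM PN libraries for Clca4a but not for Clca4b. With 3 UMIs against 581, the ratio of summed levels was 505, with a 95% counting interval of 172 to 2454. The fitted log2 fold was 8.88 ± 1.17, and 7.49 without AOM PN 2. Single cells weighed heavily: 3 AOM PN cells held 50% of the Clca4a UMIs, and 1 of them 38.2%. For Clca4b, 3 cells also held 50%, and the top cell 28.4%. With called doublets kept, the folds of Clca4a and Clca4b were 3.50 and 5.29. Among the called doublets, 1 barcode of Apc ICI 2 held 180 Clca4a and 59 Clca4b UMIs, and 1 of Apc ICI 1 held 37 Clca4b UMIs.

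Ceacam20 stood at 0.201, 0.502 and 0.659 CPM in the Apc ICI libraries and, in the AOM PN libraries, at 27.2, 38.4 and 56.9 CPM, a log2 fold of 6.41 ± 0.41 (5.80 after thinning to 1500 UMIs). Its 473 UMIs in AOM PN were spread, with 50% of them in 46 cells. Ceacam1, the most abundant of the 9 in counts, stood at 29.1, 71.3 and 80.4 CPM in the Apc ICI libraries and, in the AOM PN libraries, at 684, 610 and 514 CPM (log2 fold 3.32 ± 0.36). The lowest AOM PN library was above the highest Apc ICI library for both genes. Cdhr5 stood at 6.24, 12.1 and 10.4 CPM in the Apc ICI libraries and, in the AOM PN libraries, at 88.9, 112.5 and 140 CPM (3.55 ± 0.27). With the doublet calls kept, these folds were 5.08, 2.64 and 2.96. Ceacam1 is also a gene of leukocytes, and leukocyte markers moved with it in the epithelial-like sums: 9 of 10 neutrophil markers had a higher mean in AOM PN, none was at 0, and their summed level was 116 to 281 CPM over the Apc ICI libraries and 451 to 664 CPM over those of AOM PN. In neutrophil-like cells the same markers summed to 60135 to 276311 CPM, and Ceacam1 was at 52.3 CPM at most. For T/NK markers, 10 of 12 had a higher mean in AOM PN, none was at 0, and the sums were 12.1 to 19.1 CPM and 125.5 to 228.8 CPM.

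The guanylins did not share this pattern. Guca2a stood at 40.3, 71.7 and 23.1 CPM in the Apc ICI libraries and, in the AOM PN libraries, at 18.2, 29.9 and 8.51 CPM, with overlapping groups and a log2 fold of -1.2 ± 0.46. The fold was -2.09 after thinning to 1500 UMIs. Guca2b stood at 22.6, 45.5 and 22.8 CPM in the Apc ICI libraries and, in the AOM PN libraries, at 30.4, 30.4 and 20.2 CPM, a log2 fold of -0.15 ± 0.30. Its sign turned to 0.25 without Apc ICI 2, and it was -0.84 after thinning.

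The transport genes were scarce in both models. Slc26a3 was seen as 0, 0 and 4 UMIs over Apc ICI and as 1, 4 and 1 over AOM PN libraries, a ratio of summed levels of 3.91 with a counting interval of 0.927 to 18.8. Aqp8 was not seen in Apc ICI and was seen as 5, 17 and 0 UMIs in AOM PN. Its summed level of 1.62 CPM in AOM PN was at least 19.1-fold higher than the limit of 3 counts over the Apc ICI group, 0.0846 CPM. AOM PN 2 gave 17 of the 22 UMIs, and the groups overlap because AOM PN 3 had none.

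**Figure D1:**
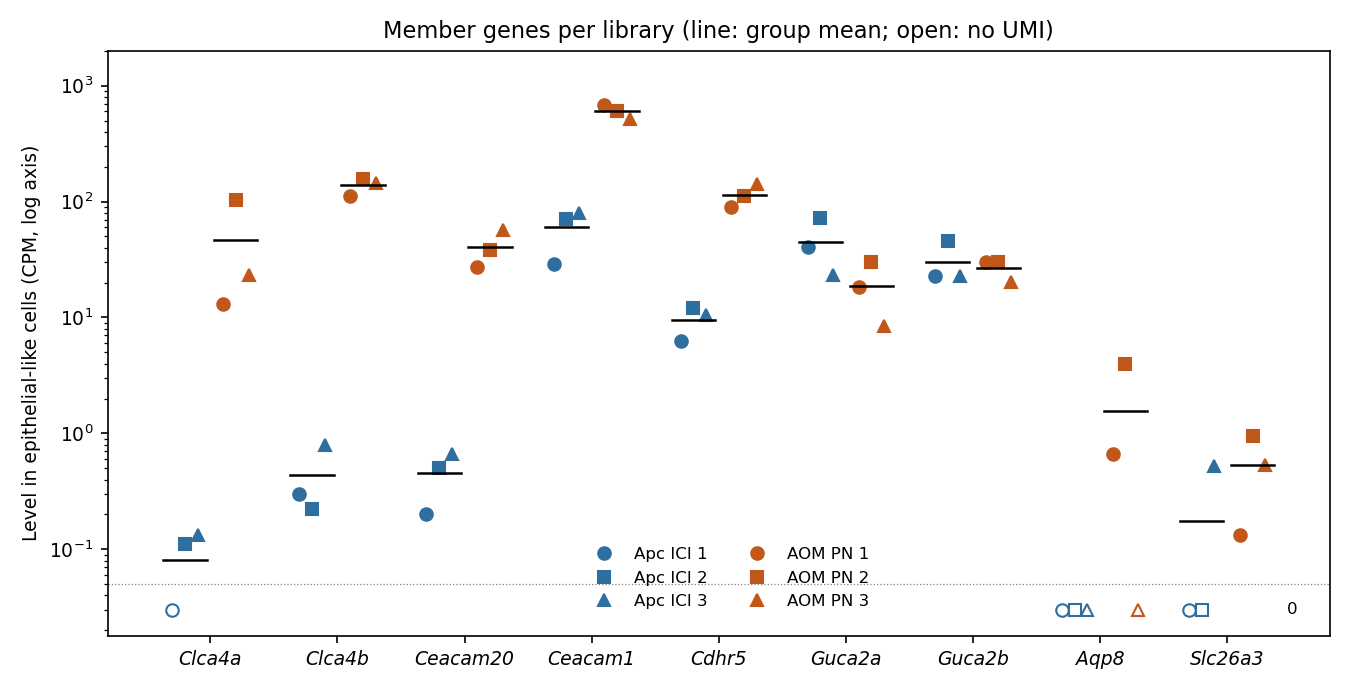
Level of each gene in epithelial-like cells of each library, in CPM on a log axis, with group means as lines and libraries without a UMI as open symbols under the dotted line. Clca4a to Cdhr5 separate the groups, from 0 to 0.132 CPM against 13.1 to 103 CPM for Clca4a, while Guca2a and Guca2b overlap and Aqp8 and Slc26a3 stay at or below 4 CPM.

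Per cell, Ceacam1 reached the largest share of epithelial-like cells. Each cell was thinned to 1500 UMIs, which left out 72, 104 and 105 shallower cells of the Apc ICI libraries and 570, 305 and 261 of the AOM PN libraries. A Ceacam1 UMI was then seen in 4.56%, 8.03% and 8.49% of Apc ICI cells and in 48.0%, 42.5% and 41.7% of AOM PN cells. Unthinned, the mean shares were 18.4% and 48.0%. Cdhr5 was seen in 1.68%, 1.84% and 1.45% of thinned cells against 10.3%, 12.3% and 14%. Ceacam20 was seen in 0.240%, 0% and 0.207% against 4.09%, 6.30% and 9.65%. Neither gene overlapped between groups.

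Clca4b was seen in 1 of 1660 thinned Apc ICI cells and in 3.02%, 4.66% and 7.46% of AOM PN cells. Clca4a was seen in none of the thinned Apc ICI cells, where the 0 counts in libraries 1, 2 and 3 allow shares of up to 0.719%, 0.395% and 0.621%. Unthinned, it was seen in 3 of 1941 Apc ICI cells. In AOM PN it was seen in 1.24%, 5.21% and 1.75%. The guanylins went the other way or overlapped: Guca2a was seen in 4.32%, 4.74% and 3.73% of Apc ICI cells and 1.95%, 1.92% and 0.877% of AOM PN cells. Guca2b was seen in 1.2%, 4.21% and 3.11% against 2.49%, 2.19% and 1.75%. Slc26a3 and Aqp8 were seen in 3 and 4 of 1156 AOM PN cells.

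In neutrophil-like cells thinned the same way, which should lack these genes except Ceacam1, mean shares of the other 8 genes were at most 0.151% for Apc ICI and 0.114% for AOM PN. Median depths there were 2672 to 3613 UMIs per cell. For Clca4b 2 of 6128 Apc ICI neutrophil-like cells had a UMI, and for Ceacam20 none of them, against 1 and 2 of the 1660 epithelial-like cells. Of the 13 Clca4b UMIs in unthinned Apc ICI cells 9 were in the sub-cluster led by Saa1, and of the 16 of Ceacam20 12 were in that led by Igkc. For Ceacam1 the neutrophil-like shares were 3.03% and 4.96%, below the epithelial-like shares of the same group.

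**Figure D2:**
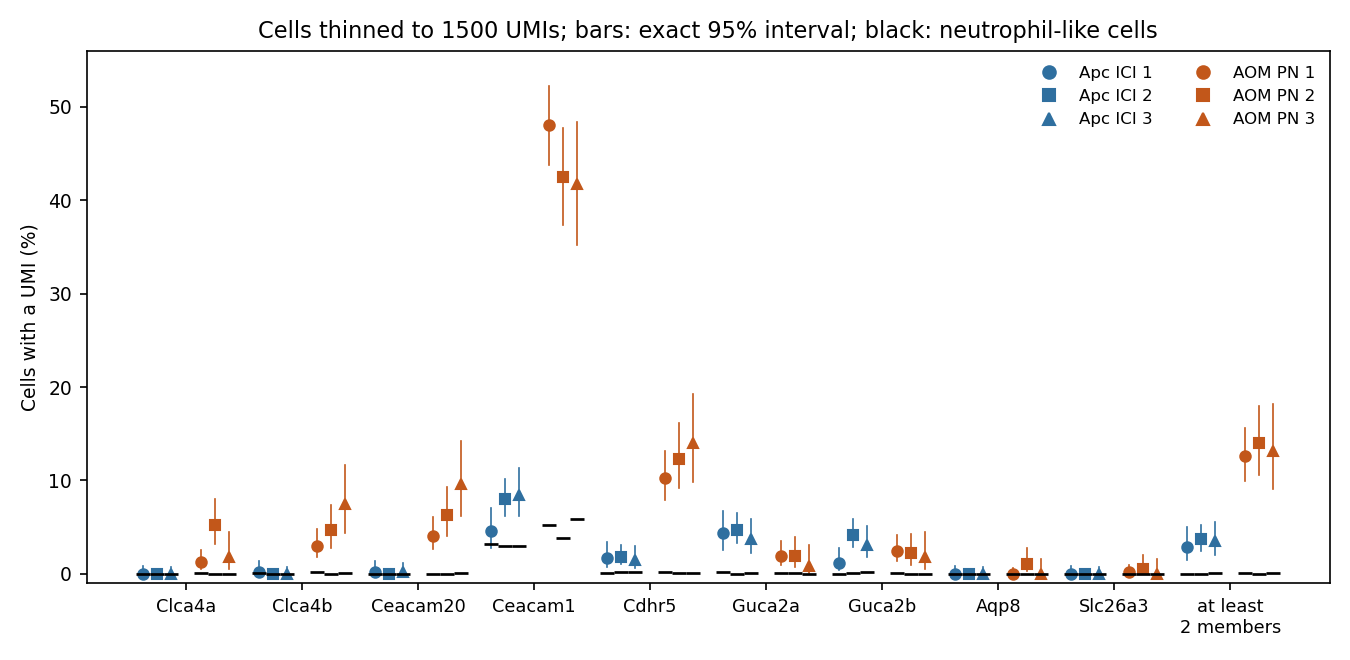
Share of cells of the epithelial-like class in which each gene was seen after thinning to 1500 UMIs, in percent, per library, with exact 95% binomial intervals that cover counting error only; black dashes give neutrophil-like cells. Ceacam1 reaches 41.7% to 48.0% in AOM PN, and every gene but Ceacam1 stays near 0 in neutrophil-like cells.

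Several of the genes occurred in the same AOM PN cells. At least 2 of the 9 were seen in 2.88%, 3.68% and 3.52% of thinned Apc ICI cells and 12.6%, 14% and 13.2% of AOM PN cells. At least 3 were seen in 12 of 1660 and 57 of 1156 cells. Of the 51 AOM PN cells with a Clca4b UMI, 36 also had Cdhr5 (70.6%, against 11.7% of all 1156 cells), 19 had Clca4a and 17 had Ceacam20. Of the 30 cells with Clca4a, 20 had Cdhr5. All 4 cells with Aqp8 had Ceacam20.

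The gene seen most often, Ceacam1, was seen in 51.0% of the Clca4b cells, 46.7% of the Clca4a cells and 45.6% of the Ceacam20 cells, against 45.0% of all AOM PN cells. Among cells with Cdhr5 it was seen in 81 of 135 (60%). In Apc ICI the genes seen together were others: 18 of the 72 cells with guanylin also had uroguanylin (25%, against 3.13% of all cells) and 27 had Ceacam1 (37.5%, against 7.29%). Pairs were counted over cells pooled from 3 libraries and are given without a test.

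Sub-clusters of the epithelial-like cells place the genes in different cells, so that the 9 genes do not mark 1 kind of cell here. Clusters were built on all genes, these included, so the values describe the clusters. Levels here are CPM within the sub-cluster, without TMM factors. The sub-cluster led by Saa1, Lypd8 and Clca4b, with 11 Apc ICI and 100 AOM PN cells, held 78.3% of the AOM PN UMIs of Clca4a, 51.4% of Clca4b and 19 of the 22 of Aqp8. In its Apc ICI cells Ceacam1 was at 1276 CPM and Clca4b at 638, the latter on 9 UMIs. In its AOM PN cells Clca4b was at 2707 CPM, Clca4a at 1349, Ceacam1 at 1482, Cdhr5 at 1127 and Ceacam20 at 433. Its cells made up 4.36% of the AOM PN epithelial-like cells. Saa1 is an acute-phase protein and Lypd8 a surface protein that keeps bacteria off the colonic lining.

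The guanylins sat elsewhere. A sub-cluster led by Spink4, Lyz1 and Defa24, genes of goblet and Paneth cells, with 108 Apc ICI and 12 AOM PN cells, held 90.8% of the Apc ICI UMIs of Guca2a and 63.6% of those of Guca2b. There Guca2a was at 1188, 1351 and 1169 CPM and Guca2b at 488, 603 and 816 CPM over libraries 1, 2 and 3 of Apc ICI, with no UMI of Clca4a, Clca4b, Aqp8 or Slc26a3. Without this sub-cluster the log2 fold of Guca2a turned from -1.2 to 1.72 and that of Guca2b from -0.15 to 1.14. In AOM PN, 71.3% and 80.5% of guanylin and uroguanylin UMIs were in the sub-cluster led by Igkc, Reg3b and Reg3g, which held 66.5% of all AOM PN epithelial-like UMIs.

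Ceacam1 and Cdhr5 were seen in most AOM PN sub-clusters. For Ceacam20, 48.6% of the AOM PN UMIs were in the sub-cluster led by Igkc and 30.9% in that led by Saa1. A further 10.4% were in that led by Jun and 8.03% in that led by Gm26917. The sub-clusters led by Igkc and Saa1 held 57.2% and 27% of the AOM PN UMIs of Cdhr5. For Ceacam1 these shares were 73.5% and 5.76%. Ceacam1 was at 623 CPM in the 791 AOM PN cells led by Gm26917 and Lars2, 576 in the 444 led by Jun and Tcim, 657 in the 333 led by Igkc and Reg3b and 132 in the 409 led by the hormone genes Pyy and Ppy. Its highest level was 1482 CPM, in the AOM PN cells led by Saa1. Sub-clusters that both models hold gave gaps of different size and direction. In the cells led by Igkc and Reg3b, Ceacam1 was at 525, 444 and 395 CPM across Apc ICI libraries (2, 25 and 23 cells) and at 679, 679 and 463 in AOM PN. In those led by Spink4 it was at 375, 443 and 306 CPM against 542, 583 and 622 (5, 5 and 2 cells). In those led by Pyy, with at least 22 cells in each library, it was at 260, 191 and 189 CPM against 147, 107 and 190. Among dividing cells led by Ube2c it was at 14.3 CPM in 128 Apc ICI cells and 451 CPM in 8 AOM PN cells. The latter level rests on 3 UMIs. In dividing cells led by Hist1h2ap it was at 282 CPM in 20 Apc ICI cells and 354 CPM in 132 AOM PN cells. Ceacam1 was at 2.85 CPM in the 471 cells led by Ptn, Spock2 and Wif1, all of them Apc ICI, which gave 43.2% of the Apc ICI UMIs.

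Cdhr5 was counted less often. Its level was 53.5 CPM for Apc ICI against 83.0 for AOM PN in the cells led by Igkc and Reg3b, at 55.9 and 35.4 in those led by Pyy, and at 3.60 in those led by Ptn. Clca4b did not overlap between groups within a shared sub-cluster. Among cells led by Igkc and Reg3b its level was 0, 0 and 4.52 CPM across Apc ICI libraries, against 90.5, 65.9 and 118 CPM across those of AOM PN. In AOM PN 1, however, 1 cell held 505 of the 835 Clca4b UMIs. This sub-cluster held 572 of them and that led by Saa1 254, so the cell lies here and gave most of the 90.5 CPM.

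**Figure D3:**
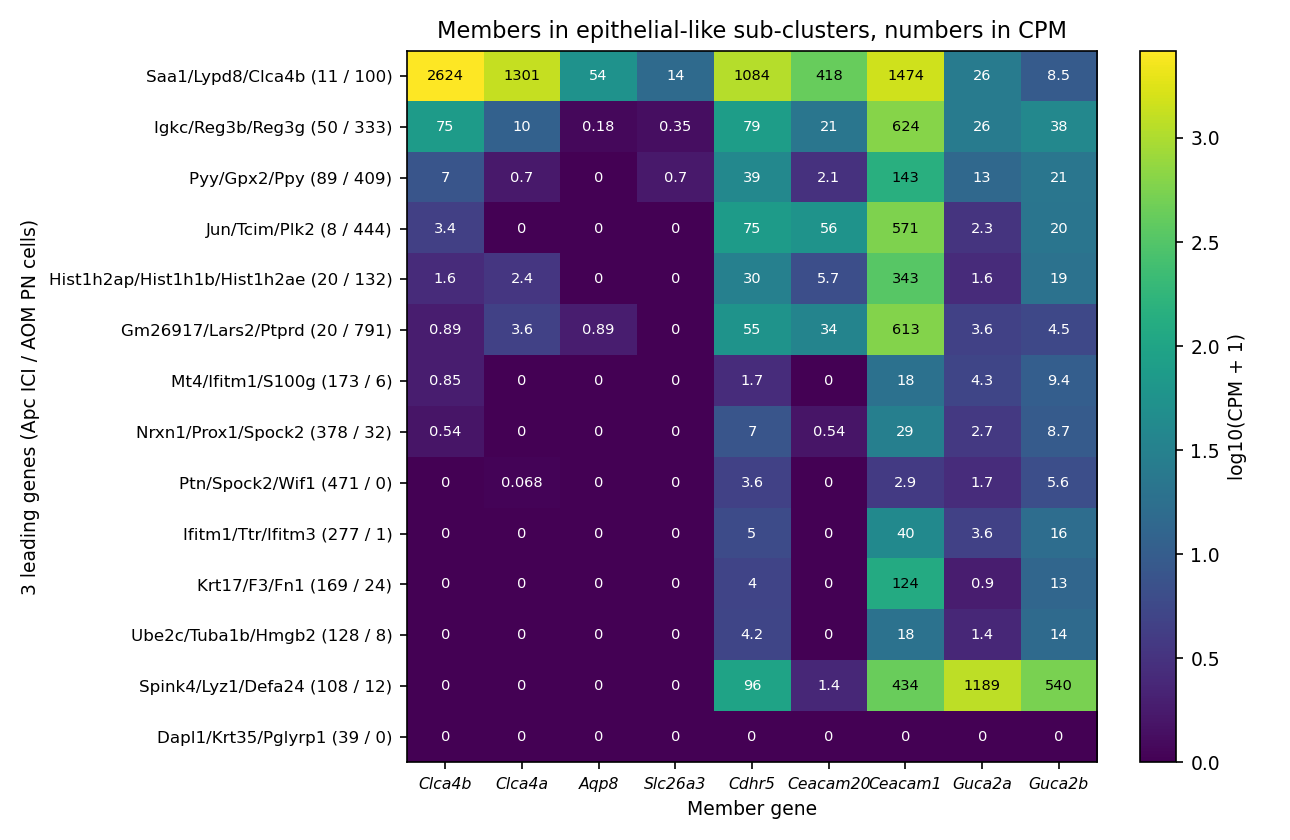
Levels of the 9 genes in 14 sub-clusters of epithelial-like cells, with CPM printed in each cell and the colour giving log10(CPM + 1); rows are named by 3 leading genes, with the number of Apc ICI and AOM PN cells. The CLCA genes, Aqp8, Slc26a3, Ceacam20, Cdhr5 and Ceacam1 peak in the row led by Saa1, Cdhr5 at 1084 CPM and Ceacam1 at 1474 CPM. The guanylins peak in the row led by Spink4 at 1189 and 540 CPM. Ceacam1 is also at 624 CPM in the row led by Igkc and at 613 CPM in that led by Gm26917.

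Genes most like the set were sought in the 1156 thinned AOM PN cells, by Pearson correlation between a UMI of the gene and the number of the 9 genes seen, over 7448 other genes seen in at least 2% of cells. The 8 nearest were Saa1 (r = 0.56), the surface keratin Krt20 (0.40), the scavenger receptor Dmbt1 (0.39), Clca3b (0.34), Ly6d (0.32), Ifit1bl1 (0.32), Cyp2d34 (0.31) and the choline transporter-like Slc44a4 (0.29). For Saa1 the correlation was 0.46, 0.62 and 0.62 within AOM PN 1, 2 and 3. Cells of a library share its depth and free RNA, and these values carry no test.

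Genes that work with the set were mostly higher in AOM PN. Of 83 tested genes in 7 lists of colonocyte genes and partners, 57 were higher and 8 lower in AOM PN with an adjusted p of edgeR under 0.05, against 18.4% and 19% of all 12729 genes tested. All lists were chosen with earlier results of these data known, so these counts are a description and not independent support. In the colonocyte and brush border list 19 of 21 were higher and none lower. Of the 57 higher genes 7 passed the filter only through AOM PN, and of the 8 lower genes 2 only through Apc ICI. Passing through 1 group favours genes that differ, so these calls are weaker support. Car4, a carbonic anhydrase of surface colonocytes, is 1 of the 7: it was seen as 0, 2 and 0 UMIs over Apc ICI and 48, 71 and 25 over AOM PN libraries, a ratio of summed levels of 188 with a counting interval of 51 to 1564. Saa1 rose from 2.51 to 3.69 CPM over Apc ICI libraries to 143, 592 and 191 CPM in AOM PN (6.68 ± 0.61, edgeR adjusted p = 9.78e-05). Tmem37 rose by 4.89 ± 0.48, and the carboxylesterase Ces1f, another of the 7, was at a fitted fold of 5.26 ± 0.67 on 7 and 120 UMIs. Car1 and Slc20a1 were the 2 that did not pass, named after their values were seen, with log2 folds of -2.71 ± 1.21 and -0.0039 ± 0.20. Without Apc ICI 1, where Car1 was at 0.101 CPM, its fold of -3.31 passed (edgeR adjusted p = 0.000131).

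Of 6 tested genes of the guanylin receptor pathway 3 were higher, 2 lower and 1 did not pass, beside 18.4% higher and 19% lower over all genes. Gucy2c, the guanylate cyclase C receptor, rose from 13.7, 10.5 and 9.88 CPM to 56.6, 55.3 and 50.5 CPM (log2 fold 2.26 ± 0.16, edgeR adjusted p = 3.64e-05). Cftr, the chloride channel that cyclic GMP signalling opens, rose from 2.01, 3.68 and 4.88 to 29.3, 26.6 and 26.6 CPM (2.98 ± 0.28). Pde5a, which degrades cyclic GMP, rose by 0.98 ± 0.14. In this list 2 genes fell: the sodium-proton exchanger Slc9a3 from 80.3, 76.4 and 89.1 to 4.81, 11.8 and 11.2 CPM (-3.25 ± 0.29, edgeR adjusted p = 8.96e-05) and the nucleotide exporter Abcc4 by 1.37 ± 0.16 on the log2 scale. The kinase Prkg2 was at a log2 fold of 0.39 ± 0.21 (edgeR adjusted p = 0.181). It passed without Apc ICI 1 (0.0386) and with thinned cells (0.0491). Prkg1 and Cnga3 were not tested for low counts.

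Of 18 ion and water transport genes 11 were higher and 2 lower, beside 18.4% higher and 19% lower over all genes. Aqp4, a water channel of the basal side, rose from 0.805, 4.24 and 6.19 to 48.4, 41.4 and 80.3 CPM (log2 fold 3.91 ± 0.52, edgeR adjusted p = 0.000569). Scnn1b, a subunit of the epithelial sodium channel, was the other that fell beside Slc9a3, from 10.9, 4.96 and 5.27 to 0.134, 0.235 and 0.532 CPM on 237 and 3 UMIs, a ratio of summed levels of 0.033 with a counting interval of 0.00675 to 0.0976. Scnn1a, another subunit of that channel, named after its values were seen, rose from 3.52, 4.46 and 2.5 to 6.29, 13.2 and 16 CPM (1.65 ± 0.38).

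Microvillar genes, among them the complex that ties microvilli together, were higher in 8 of 9 and lower in 1. Beside this, 18.4% of all genes were higher and 19% lower. Cdhr2, the protocadherin partner of Cdhr5, rose from 1.41, 3.07 and 3.29 to 20.9, 36.2 and 29.8 CPM (3.45 ± 0.33, edgeR adjusted p = 0.000119). The brush border myosin Myo1a rose by 2.28 ± 0.28 and the actin bundler Pls1 (plastin) by 2.24 ± 0.14. Smaller changes were seen for Anks4b (1.08 ± 0.25), Eps8 (0.92 ± 0.14), Myo7b (0.83 ± 0.15), Calml4 (0.83 ± 0.23) and Ush1c (0.71 ± 0.13). Calml4 no longer passed when Apc ICI 1, Apc ICI 3 or AOM PN 1 was left out (edgeR adjusted p = 0.0806, 0.0584 and 0.0528). Anks4b and Myo7b were no longer called in thinned cells. Espn, the actin bundler espin, fell from 41.8, 28.2 and 29.5 to 11.4, 13.9 and 17.5 CPM (-1.27 ± 0.22, edgeR adjusted p = 0.00247; not called in thinned cells, 0.225).

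Among CEACAM partners and relatives 2 of 8 were higher and 2 lower, near the 18.4% and 19% of all genes. Ptprh, the receptor phosphatase that forms a pair with Ceacam20 in intestinal microvilli, rose from 0.604, 0.279 and 0.791 to 8.96, 20.7 and 25 CPM on 17 and 202 UMIs (fitted log2 fold 5.08 ± 0.52). Both higher genes of this list, Ptprh and Havcr2, passed the filter only through AOM PN, and Ceacam2 only through Apc ICI. Havcr2 (Tim-3), a ligand of Ceacam1, rose by 1.31 ± 0.42 at 0.905 to 4.25 CPM. Its call was lost in 8 alternatives, 5 of them leaving out 1 library (edgeR adjusted p = 0.069 to 0.11). Ceacam2 fell from 7.85, 7.31 and 16.7 to 0.936, 0.235 and 0.532 CPM (-3.99 ± 0.57), opposite to Ceacam1, with which it shares its 3′ end. Ceacam10 fell by 2.49 ± 0.57, and its call was lost with doublet calls kept (edgeR adjusted p = 0.0595). The phosphatases that bind Ceacam1, Ptpn6 (-0.22 ± 0.27) and Ptpn11 (-0.20 ± 0.14), and the kinases Syk (-0.58 ± 0.24) and Src (0.29 ± 0.16) did not pass. Syk passed with no filter, with cells chosen by markers and without the sub-cluster led by Saa1 (edgeR adjusted p = 0.0498, 0.0398 and 0.00369), where its fold was -1.04.

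Of the CLCA relatives 3 of 4 were higher, beside 18.4% over all genes. Of these, Clca3a1 and Clca3a2 passed the filter only through AOM PN. Clca3b rose from 9.25, 6.13 and 18.5 to 243, 246 and 249 CPM (log2 fold 4.48 ± 0.37, edgeR adjusted p = 6e-05), Clca3a2 by 5.10 ± 0.41 and Clca3a1 by 3.89 ± 0.51. Clca1, the goblet cell member, named after its values were seen, stood at 10.8, 6.97 and 0.132 CPM across Apc ICI libraries and at 1.34, 5.18 and 769 across AOM PN libraries, so 1 library held nearly all of it (edgeR adjusted p = 0.0645). Without AOM PN 3 its fold turned to -1.02.

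Transcription factors of enterocytes were higher in 13 of 20 and lower in 2, beside 18.4% and 19% over all genes. The homeobox factor Cdx2 rose from 0.604, 2.57 and 2.50 to 44.7, 36 and 19.1 CPM (4.14 ± 0.45, edgeR adjusted p = 0.000212) and Cdx1 from 15.1, 19.2 and 26.1 to 168, 132 and 110 CPM (2.77 ± 0.24). The vitamin D receptor Vdr rose by 3.55 ± 0.44 and Foxd2 by 3.06 ± 0.26. Hnf4a, named because its motif was searched, rose by 2.01 ± 0.17. Prdm1 and Onecut2, named after their values were seen, fell by 1.67 ± 0.30 and 1.97 ± 0.53, Prdm1 not passing in thinned cells (edgeR adjusted p = 0.133).

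Goblet and stress genes were read beside these. Of 15 goblet and secretory genes none was higher and 4 were lower, beside 19% lower over all genes: Reg4 by 3.20 ± 1.05, Bcas1 by 2.25 ± 0.63, Sytl2 by 1.93 ± 0.55 and Ern2 by 1.28 ± 0.40 on the log2 scale. The calls of all 4 were lost without Apc ICI 1 (edgeR adjusted p = 0.0531 to 0.0777). Of 16 heat shock and immediate early genes, known to respond to dissociating tissue, 9 were higher and none lower, beside 18.4% and 19% over all genes. Largest were the folds of Hspa1b (2.10 ± 0.53), Hspa1a (1.95 ± 0.55), Dnajb1 (1.23 ± 0.19) and Jun (1.08 ± 0.19). Hspa1a no longer passed with a replicate block, without any 1 of the Apc ICI libraries, or without AOM PN 2, where its fold was 1.13 (edgeR adjusted p = 0.0564 to 0.0765). Hspa1b was at 292, 677 and 107 CPM across AOM PN and 73.3 to 93.3 across Apc ICI libraries. The part of this response in the levels of the 9 genes was not tested.

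**Figure D4:**
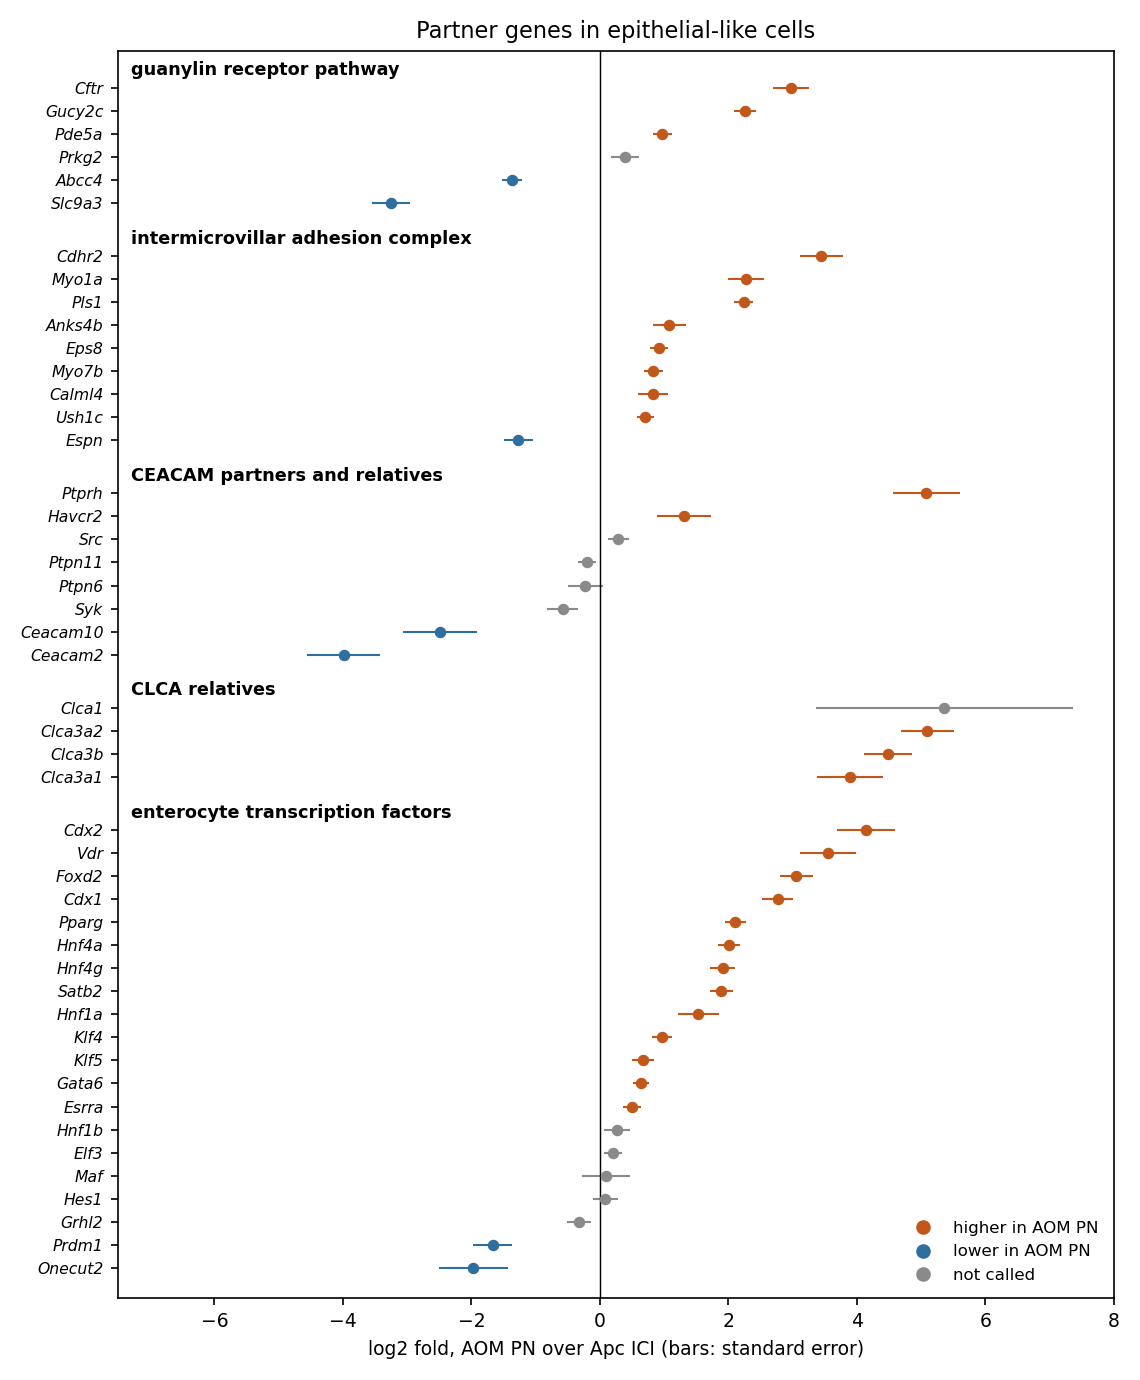
Fold changes of partner genes in epithelial-like cells, on the log2 scale (positive means higher in AOM PN), bars being standard errors, grouped by list; colours give the edgeR call at an adjusted p under 0.05. Gucy2c and Cftr lie right of 0 and Slc9a3 and Abcc4 left of it, and 8 of the 9 microvillar genes lie right of 0.

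Outside the epithelium only Ceacam1 was counted well enough to be tested. These cells were not used to choose the genes. In neutrophil-like cells Ceacam1 rose from 15.4, 17.4 and 18.6 CPM in the Apc ICI libraries to 45.3, 32.6 and 52.3 CPM in the AOM PN libraries. All 3 AOM PN libraries were above all 3 Apc ICI libraries, with a log2 fold of 1.34 ± 0.20 (edgeR adjusted p = 0.00266). The neutrophil markers themselves were higher in AOM PN for 9 of 10 genes, none at 0, with sums of 60135, 61172 and 123624 CPM across Apc ICI and 276311, 137464 and 156701 CPM across AOM PN libraries. The class also sat in different clusters, numbered 0 to 24 by size. Cluster 0, led by Retnlg, held 8.36% of Apc ICI and 48.8% of AOM PN neutrophil-like cells, cluster 6, led by Cstb and Ccl3, 37.4% and 1.58%, and cluster 7, led by the interferon-induced genes Slfn4 and Ifit3, 35.1% and 2.05%. Within cluster 0 Ceacam1 was at 28.4, 19.4 and 23.5 CPM (Apc ICI) and 35.2, 39.8 and 59 CPM (AOM PN, without TMM factors). Within cluster 1, led by Gm5483 and G0s2, it was at 27.3, 24.2 and 28.3 CPM and 24.2, 22.6 and 49.2 CPM, so the groups overlapped there. The part of clusters and markers in the change over the class was not tested. Of 9411 genes tested in these cells 15% were higher in AOM PN. The call held in every alternative run, with log2 folds of 1.06 to 1.53.

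Free epithelial RNA in the same cells was read from epithelial markers. Epcam, an epithelial surface protein, was in neutrophil-like cells at 0.726%, 1.31% and 1.33% of its epithelial-like level over Apc ICI libraries, and at 0.648%, 0.280% and 0.355% over AOM PN libraries. At that percentage, Ceacam1 from epithelial-like cells would come to 0.211 to 1.07 CPM across Apc ICI and 1.71 to 4.44 CPM across AOM PN libraries. These values depend on the gene used: by group means the percentage was 1.11% and 0.46% for Epcam, and 1.67% and 0.703% for Krt8. The part of free RNA in the change of Ceacam1 was not tested. For epithelial markers in neutrophil-like cells, 3 of 12 had a higher mean in AOM PN, none was at 0, and the sums were 119 to 205 CPM across Apc ICI and 69.9 to 179 CPM across AOM PN libraries. Of the other 8 genes, neutrophil-like cells held 0 to 41 UMIs each in all, none enough for the test.

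In the other classes Ceacam1 did not pass. Monocyte/macrophage-like cells held 19.4, 15.6 and 26.7 CPM across Apc ICI and 36, 31.6 and 21.3 CPM across AOM PN libraries (log2 fold 0.55 ± 0.24, edgeR adjusted p = 0.222; 1.33% of 11156 genes were called higher). Dendritic-like cells gave -0.30 ± 0.28 (edgeR adjusted p = 0.681; 0.517% of 8708 higher), B-like cells 0.53 ± 0.42 (0.701; 0.445% of 5170) and T/NK-like cells 0.38 ± 0.52 (0.700; 2.98% of 10448). The change in neutrophil-like cells was 0.78 ± 0.31 larger than in monocyte/macrophage-like cells on the log2 scale, which did not pass (edgeR adjusted p = 0.106), while 15% of 11554 genes passed that test. In AOM PN the order of mean levels was epithelial-like (603 CPM), neutrophil-like (43.4), monocyte/macrophage-like (29.6), B-like (23.5), dendritic-like (17.9), T/NK-like (2.34) and erythroid-like (1.45). Libraries of neighbours in this order overlapped, except between epithelial- and neutrophil-like and between dendritic- and T/NK-like cells.

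**Figure D5:**
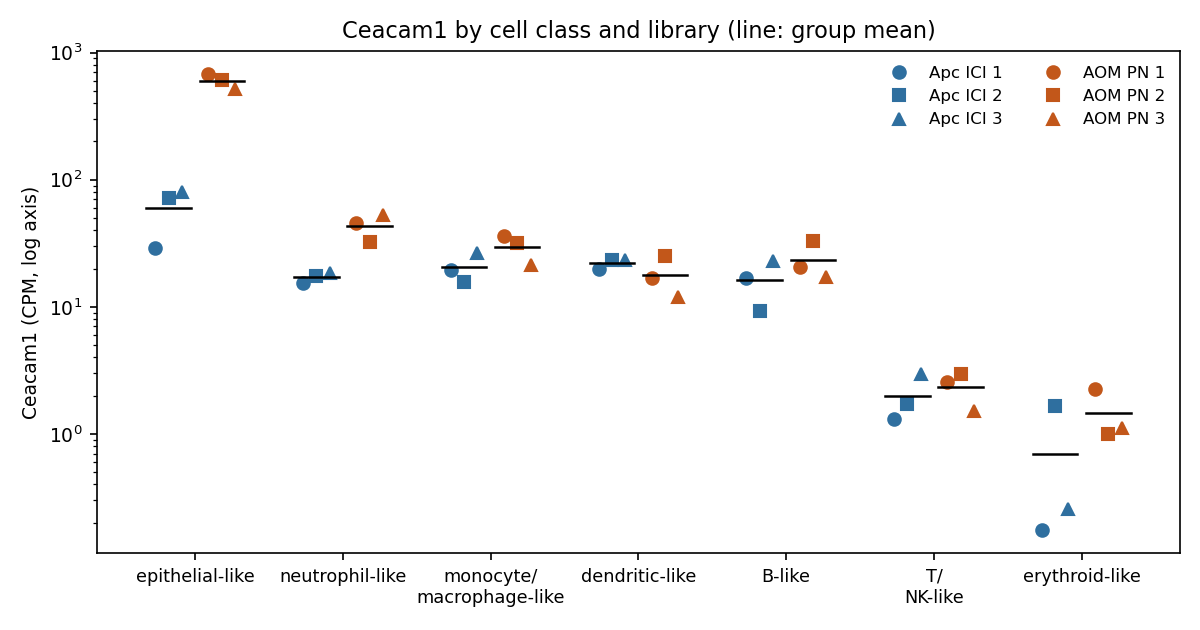
Ceacam1 level by cell class, library and group, in CPM on a log axis, with group means as lines. Neutrophil-like cells are at 15.4 to 18.6 CPM across Apc ICI and 32.6 to 52.3 CPM across AOM PN libraries, and epithelial-like cells at 29.1 to 80.4 and 514 to 684 CPM.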

How the data were processed

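RNA was measured in 6 sorted single-cell libraries (10x 3′ kit), 3 per model, as unique molecular identifier counts per gene and barcode. The deposited counts are raw and were made with Cell Ranger 6.1.2 against mm10, per the submitters' processing notes. A barcode was kept if it had 200 genes or more and no more than 20% mitochondrial counts. Doublets were scored against simulated ones and removed at 0.8% for every 1000 barcodes of a library. Cells were clustered by Leiden (leidenalg 0.10.2, igraph 0.11.9, 30 components, 20 neighbours, resolution 1) on 2000 variable genes, using scikit-learn 1.9.0, scipy 1.17.1 and numpy 2.4.6 under Python 3.11.15. Of 34 clusters, the epithelial ones were clustered again, and 5 sub-clusters led by markers of another class were left out.

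Sums of counts over the cells of a class in a library were tested with edgeR 4.0.16 (R 4.3.3) by the quasi-likelihood test, with TMM scaling, the filterByExpr filter and Benjamini-Hochberg adjustment over all genes at 0.05. DESeq2 1.42.0 was an alternative, with others on filtering, replicate block, left-out libraries, doublets, depth and choice of cells. On simulated data with 200 changed genes, the epithelial fit over 12729 genes recovered 51% of 2-fold and 96% of 4-fold changes, with 5.77% of calls false. For neutrophil-like sums over 9411 genes these were 45%, 98% and 10.1%, and for monocyte/macrophage-like sums over 11156 genes 54%, 96% and 5.06%. Intervals are exact 95% binomial (Clopper-Pearson) and cover counting error only, and a count of 0 is limited by 3 counts. Promoter matches and transcript identity were computed with Biopython 1.88 on RefSeq promoters and GENCODE transcripts.

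The 9 genes, the gene lists, markers and motifs were chosen with earlier results of these data known. Text names all 9, up to 4 called genes of largest fold per list, every tested gene of the guanylin receptor, microvillar and CEACAM lists, and the 8 genes most like the set; others are marked as chosen after their values were seen, or, for Hnf4a, for its motif.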

Additional observations from a re-analysis of the deposited data

Results flagged for a closer look

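Clca4a was also seen in barcodes outside the epithelial-like class. Sub-clusters left out because markers of another class led them held 78 Clca4a UMIs in AOM PN and none in Apc ICI. Of these, 77 were in AOM PN 2, and 57 were in 1 cell.

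Barcodes removed as doublets held 180 Clca4a UMIs in Apc ICI, all in 1 barcode of Apc ICI 2, against 3 UMIs in the 1941 Apc ICI cells kept. This barcode had 23248 UMIs, with 59 of Clca4b, 125 of Ceacam1, 39 of Cdhr5, 234 of Epcam, 21 of the leukocyte gene Ptprc and 155 of the neutrophil gene S100a8. A barcode of Apc ICI 1 with 7950 UMIs, also removed, held 37 of Clca4b, 25 of Ceacam1 and 65 of Epcam, with none of Ptprc or S100a8. Whether these barcodes are doublets was not tested beyond the doublet score. Groups of 3 libraries were not tested for single outlying samples.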

How the results depend on the processing

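Thinning cells to 1500 UMIs left 1025 genes higher and 752 lower in AOM PN (2336 and 2417 unthinned) and 4 partner genes lower (8 unthinned). Without the sub-cluster led by Spink4, Guca2a was at 1.72 and Guca2b at 1.14 on the log2 scale. Cells with at least 2 of the 9 genes made up 2.26% of Apc ICI and 9.27% of AOM PN cells at 1000 UMIs, 11.3% and 23.0% unthinned, and 4.46% of Apc ICI cells with doublet calls kept. Leaving out 1 library in turn gave 1785 to 2539 genes higher, 1936 to 2793 lower, 52 to 58 partner genes higher and 8 to 9 lower, and shares of 3.20% to 3.60% and 12.9% to 13.6%. Guca2b then ranged from -0.339 to 0.248, Ptpn6 from -0.491 to 0.0304, Slc20a1 from -0.167 to 0.109 and Clca1 from -1.02 to 5.95. Clca1 was at -1.43 with cells chosen by markers, and Slc20a1 at 0.00774 with a replicate block, 0.0671 in thinned cells and 0.00739 without the Spink4 sub-cluster. Of 51 named partner genes 43 were called, 16 lost or gained a call under some alternative, and 7 lost it when 1 library was left out. The cause of these changes was not tested. Same-numbered libraries did not deviate together (correlations -0.257, 0.00932 and -0.158). With 3 libraries per group this cannot decide whether the numbers pair samples. With a replicate block 1868 genes were higher and 1901 lower, partner genes 49 and 8, and Ceacam1 in neutrophil-like cells was at 1.31. The planned choice of epithelial cells by markers with a haemoglobin limit left too few cells and was run without that limit. Epithelial-like cells of AOM PN were shallower, which limits genes seen as few UMIs, such as Slc26a3 and Aqp8.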
